A study of Mus musculus with 24 samples.

Results

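The dystrophin-glycoprotein complex was followed here through 8 genes, Dmd, Utrn, Dag1, Sgca, Sgcb, Sgcd, Dtna and Sntb1, which were chosen by name and found by their mouse symbols among the 56923 gene identifiers of the count tables. All 8 were present and all 8 passed the filter on low counts, which left 20368 genes to be tested. RNA came from PCM1-sorted cardiomyocyte (CM) nuclei of mouse hearts at postnatal days 1, 7 and 14 (P1, P7, P14), and 3′ RNA sequencing (QuantSeq) gave 1 library per pool of hearts, with 15, 6 and 2 hearts per pool at P1, P7 and P14. Every animal carried Casp2(fl/fl), a floxed allele of the gene for caspase-2: controls were XMLC2(-)Casp2(fl/fl) and lacked the Cre transgene, and Casp2-depleted animals were XMLC2(+)Casp2(fl/fl), in which Cre is driven by a myosin light chain 2 promoter, which is active in CMs. Replicates are separate pools of hearts, so p-values measure the spread between pools. Each of the 6 groups held 4 libraries. Of the 24, 3 that the study set aside for low quality (replicate 1 of P1 controls, replicate 3 of P14 controls and replicate 1 of P14 Casp2-depleted CMs) were left out here too, so P1 control, P14 control and P14 Casp2-depleted each rest on 3 libraries. The study named signs of cytoplasmic contamination for the P1 library and few detected genes for the P14 ones.

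Dystrophin, the product of Dmd, is a long rod that ties cortical actin to the plasma membrane of muscle cells, and utrophin, from Utrn, is its close relative. Both bind dystroglycan, which is made from Dag1 and reaches laminin outside the cell once it is glycosylated, while the sarcoglycans (Sgca, Sgcb, Sgcd) steady dystroglycan in the membrane. On the inner face, alpha-dystrobrevin (Dtna) and the syntrophins (Sntb1 is the beta-1 form) form the scaffold that holds signalling proteins. Loss of dystrophin or of delta- or beta-sarcoglycan is a known cause of muscular dystrophy with cardiomyopathy.

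Promoter sequences are shown for the genes on which the results below turn, Dmd, whose counts sum transcripts from distant start sites, and Sgca and Sgcb, which had no read in P14 controls. They are RefSeq sequences, 300 bases each, from 250 before to 50 after a start site, and 6 of the 8 genes had an entry; Dtna and Sntb1 had none. Capitals mark E-boxes (CANNTG, the letters bound by myogenic and other basic helix-loop-helix factors) and the CArG box of serum response factor, searched on both strands. The upstream Dmd start lies 0.002 kb from the annotated gene start and the downstream one 2099 kb from it, and both were placed by exact match, at X:81992226-81992525 and X:84091651-84091950 of GRCm39, plus strand.
Dmd upstream: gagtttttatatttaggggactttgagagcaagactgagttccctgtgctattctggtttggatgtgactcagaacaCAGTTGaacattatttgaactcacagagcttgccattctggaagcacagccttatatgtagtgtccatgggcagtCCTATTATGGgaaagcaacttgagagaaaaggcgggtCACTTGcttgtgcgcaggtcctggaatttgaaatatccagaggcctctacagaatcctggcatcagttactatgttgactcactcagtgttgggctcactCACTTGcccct
Dmd downstream: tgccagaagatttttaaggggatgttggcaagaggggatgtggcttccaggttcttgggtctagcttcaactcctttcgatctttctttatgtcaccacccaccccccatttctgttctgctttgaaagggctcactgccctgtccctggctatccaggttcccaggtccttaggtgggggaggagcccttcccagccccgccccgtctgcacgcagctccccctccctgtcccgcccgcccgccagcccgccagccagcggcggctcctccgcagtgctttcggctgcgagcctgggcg
Sgca: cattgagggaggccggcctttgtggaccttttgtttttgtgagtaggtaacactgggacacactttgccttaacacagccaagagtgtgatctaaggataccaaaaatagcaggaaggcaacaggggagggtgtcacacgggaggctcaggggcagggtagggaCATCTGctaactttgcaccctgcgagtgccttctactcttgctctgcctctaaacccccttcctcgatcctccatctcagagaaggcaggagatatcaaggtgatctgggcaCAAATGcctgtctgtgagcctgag
Sgcb: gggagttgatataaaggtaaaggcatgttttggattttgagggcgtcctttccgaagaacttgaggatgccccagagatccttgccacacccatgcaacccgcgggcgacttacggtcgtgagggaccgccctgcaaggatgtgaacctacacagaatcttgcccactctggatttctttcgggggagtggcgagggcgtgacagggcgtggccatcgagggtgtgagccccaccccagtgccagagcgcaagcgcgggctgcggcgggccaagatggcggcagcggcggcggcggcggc
The Sgca and Sgcb promoters matched 11:94867104-94867403 and 5:73805031-73805330 of GRCm39, both on the minus strand. The upstream Dmd promoter held 3 E-boxes, 1 CArG box that begins 98 bases before the start, and 1 match to the MEF2 site, whereas the downstream one held none of these and 3 GC boxes (GGGCGG). Sgca held 2 E-boxes and Sgcb none. E-boxes occurred in 72.3% of all 32851 promoters of the same length, GC boxes in 35.7%, the MEF2 site in 3.19% and the CArG box in 1.63%. With GC contents of 45.7% and 62.7%, the Dmd promoters lay on either side of the median of 52.7%.

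The 21 libraries used held 891817 to 2924097 reads on genes, with 7628 to 17770 genes detected, and 34.3 to 76.1% of reads lay on no gene (the no-gene share). The P14 libraries held 891817 to 1278961 reads in controls and 976714 to 1167439 in Casp2-depleted CMs, and their no-gene shares were 63.7 to 75.2% and 72.2 to 76.1%. At P7 the shares were 36.7 to 54.7% and 34.3 to 64.3%, and at P1 60.7 to 73.9% and 36.8 to 70.6%. P7 and P14 thus did not overlap in either genotype, nor P1 and P7 in controls, nor P1 and P14 in Casp2-depleted CMs. In those comparisons a term for the share cannot be told apart from the day. All 10 cardiomyocyte markers were detected in the kept libraries. Their summed level was 61660 to 88066 RPM (reads scaled to the library's total on genes) in P7 controls and 48803 to 69362 in P7 Casp2-depleted CMs, but 13490 to 49248 and 16716 to 29532 at P14. Summed markers of fibroblasts stayed at or below 379 and those of endothelial cells at or below 1115 RPM in every kept library. Casp2 itself had 9 reads in P7 controls, 8 in P7 Casp2-depleted CMs and none in the other kept libraries, so the depletion could not be checked from these counts.

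The 8 genes differ greatly in length, and their counts include introns. Dmd spans X:81992474-84249747 on the plus strand of GRCm39, 2257 kb of which 1.07% is exon, and Sgcd spans 11:46787080-47879796 on the minus strand, 1093 kb with 1.09% exon. Utrn is on chromosome 10 (12257537-12745265, minus strand, 488 kb), Sntb1 on chromosome 15 (55499784-55771046, minus strand, 271 kb), Dtna on chromosome 18 (23548183-23793477, plus strand, 245 kb) and Dag1 on chromosome 9 (108081833-108152333, minus strand, 70.5 kb). Sgca, at 11:94853605-94867273 on the minus strand, and Sgcb, at 5:73790086-73805133 on the minus strand, are the short ones, with 13.7 and 15 kb and 24 and 34.9% exon. Together the 8 genes took 0.32 to 0.699% of the reads on genes in a library, and 42.2 to 71% of those reads were from Dmd.

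Dmd had the most reads of the 8 genes, with no scaling for length. Its mean was highest in P7 controls, both in TMM-scaled CPM and in RPM per kb of gene (1.431, against 1.385 in P1 Casp2-depleted CMs), while with the reads of a group pooled P1 Casp2-depleted CMs came first (3330 RPM, against 3253 in P7 controls). In P1 controls the 3 libraries gave 1615, 4334 and 2322 CPM (counts scaled to the library total and its trimmed mean of M-values factor, TMM), and in P1 Casp2-depleted CMs the 4 gave 4702, 1834, 2096 and 4534. P7 controls gave 5101, 4770, 3598 and 3744 CPM and P7 Casp2-depleted CMs 6295, 3567, 2635 and 2112. At P14 the control libraries gave 4316, 1320 and 1236 CPM and the Casp2-depleted ones 1970, 1137 and 1078. On this scale the P14 Casp2-depleted libraries all lay below the lowest P7 Casp2-depleted library, but in RPM they overlapped, with 1664 to 2393 at P14 and 2069 to 4608 at P7. Of the P14 controls, 1 library reached the P7 range in CPM and the other 2 did not. Ordered by mean, P7 control (4303 ± 745 CPM, SD, n = 4) came first, then P7 Casp2-depleted (3652 ± 1862, n = 4), P1 Casp2-depleted (3291 ± 1537, n = 4), P1 control (2757 ± 1411, n = 3), P14 control (2291 ± 1755, n = 3) and P14 Casp2-depleted (1395 ± 499, n = 3), and each group overlapped the next one in that order.

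Replicate 1 had the highest Dmd level of the 4 libraries in all 6 groups, those left out of the fits included. It was at 5532, 4272 and 4774 RPM in P1, P7 and P14 controls and at 4515, 4608 and 4850.4 RPM in Casp2-depleted CMs, where the other libraries lay between 1664 and 3985. The file names call the replicate number a batch. Since replicate 1 is missing from the fits in P1 controls and P14 Casp2-depleted CMs and present in the other groups, comparisons of Dmd that use either group are given with the replicate number as a block too.

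**Figure D1:**
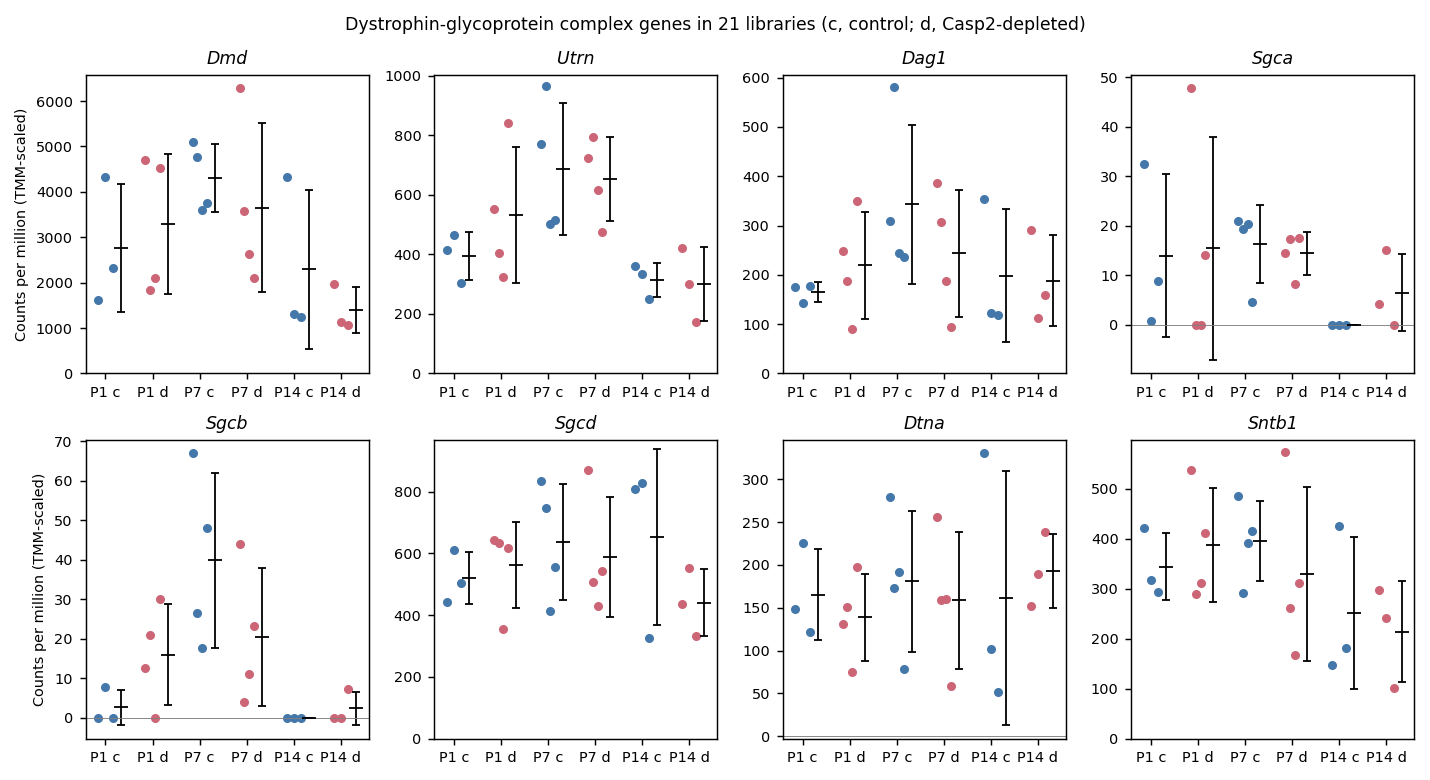
TMM-scaled CPM of each gene in the 21 libraries, by day and genotype (points, libraries; bars, mean ± SD; n = 3 or 4 per group; axes differ between genes). Dmd reached 6295 CPM in a P7 Casp2-depleted library and lay between 1078 and 1970 in P14 Casp2-depleted CMs, and Sgca and Sgcb were at 0 in all 3 P14 control libraries.

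From P7 to P14, the change in Casp2-depleted CMs is given first. Dmd fell there by 1.39 on the log2 scale (SE 0.36, edgeR quasi-likelihood test, adjusted p = 0.00836), and it was the only one of the 8 genes called (adjusted p under 0.05 with a log2 fold change beyond 1 in either direction), in a comparison where 2.83% of all tested genes were called. At an unadjusted p under 0.05 there were 2 of the 8 and 16% of all. The log2 fold change was negative for 7 of the 8 and for 60.1% of all tested genes, with a median of -0.87 over the 8 and -0.61 over all. With library totals in place of TMM factors it was negative for 4 of the 8, and the median over all was 0.00. Utrn had 725, 796, 616 and 474 CPM at P7 and 423, 301 and 174 at P14, with a log2 fold change of -1.12 (SE 0.50, adjusted p = 0.262), which was -0.35 with library totals, -0.38 with the no-gene share as a term and -0.39 with quantile normalization. The Utrn value was -1.46 without P14 Casp2-depleted replicate 2 and -0.65 without P14 Casp2-depleted replicate 4. Like Dmd, Utrn did not overlap between the days in CPM, as was so for 13.2% of all tested genes. In RPM both overlapped (Utrn 464 to 558 at P7 and 272 to 514 at P14) and none of the 8 was separated, beside 13.3% of tested genes. The other 6 genes overlapped on both scales, with log2 fold changes from -3.05 for Sgcb (SE 2.34) to 0.28 for Dtna (SE 0.65). Between them lay Sgca at -1.15 (SE 2.30), Sntb1 at -0.62 (SE 0.54), Sgcd at -0.42 (SE 0.48) and Dag1 at -0.38 (SE 0.59), and the smallest adjusted p among these genes was 0.503. With 1 library left out, Sntb1 ran from -0.94 to -0.09, Sgcd from -0.54 to -0.04, Dag1 from -0.84 to 0.09 and Dtna from 0.01 to 0.73. The values of the sparse genes rest on few libraries. Sgca was at -2.57 without P14 Casp2-depleted replicate 3 and at -0.34 without replicate 4, and Sgcb at -3.30 to -2.22 without any 1 library other than P14 Casp2-depleted replicate 4, which held all of its P14 reads.

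The Dmd call was lost under many other settings. With library totals in place of TMM factors its log2 fold change was -0.58 (adjusted p = 0.361), and it was -0.05 once the no-gene share was a term in the fit (adjusted p = 1). That share did not overlap between these groups (34.3 to 64.3% at P7, 72.2 to 76.1% at P14), so the term cannot be told apart from the day. Left out in turn, P7 Casp2-depleted replicate 1 gave -0.88 (adjusted p = 0.259), P14 control replicate 2 gave -1.17 (adjusted p = 0.0552), P14 Casp2-depleted replicate 3 gave -1.06 (adjusted p = 0.25) and replicate 4 gave -1.04 (adjusted p = 0.28), and in each case the call was lost. With the replicate number as a block it was -1.03 (adjusted p = 0.0616). Elsewhere the fold stayed near the reported one or exceeded it and the call was lost all the same, at -1.25 with edgeR's own filter (filterByExpr; adjusted p = 0.0833), -1.25 with only the groups compared in the fit (adjusted p = 0.101) and -1.92 by limma-voom with TMM (SE 1.04, adjusted p = 0.316). The summed cardiomyocyte markers did not overlap between the same groups either, with 48803 to 69362 RPM at P7 and 16716 to 29532 at P14. Nor did those of fibroblasts, at 113 to 181 RPM at P7 and 202 to 379 at P14 (8 of 8 markers with a read), and of endothelial cells, at 148 to 468 and 587 to 629.6 RPM (7 of 8, Egfl7 at 0), which were higher at P14. The 7 mural markers were lower, at 318 to 491 and 183 to 291 RPM, and those of macrophages overlapped. The part of these levels in the Dmd result was not tested. In bulk nuclei, fewer CMs in a sort and less RNA per nucleus cannot be told apart.

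In controls none of the 8 genes was called in the same step by edgeR, where 1.88% of tested genes were called. An unadjusted p under 0.05 was found for 4 of the 8 and for 14.8% of tested genes. Of the 8, 7 had a negative log2 fold change, as did 62.2% of tested genes, and the median log2 fold change over all tested genes was -0.75. Negative values were 4 of 8 with the no-gene share as a term. Dmd had a log2 fold change of -0.91 (SE 0.36, adjusted p = 0.221) and Utrn of -1.13 (SE 0.50, adjusted p = 0.294), which was -0.33, -0.34 and -0.39 under the same 3 alternatives. Utrn went from 770, 965, 501 and 517 CPM at P7 to 361, 334 and 251 at P14, with no overlap in CPM, but overlapped in RPM (399 to 644 and 371 to 433). Dag1 had -0.79 (SE 0.60), Sntb1 -0.65 (SE 0.54), Dtna -0.16 (SE 0.66) and Sgcd 0.04 (SE 0.47). Leaving out 1 library gave -1.51 (without P14 control replicate 1) to -0.34 (without P7 control replicate 2) for Dag1. Likewise Dtna ran from -1.23 (without P14 control replicate 1) to 0.26 (without P14 control replicate 4). Sntb1 ran from -1.09 (without P14 control replicate 2) to -0.38 (without P14 control replicate 1). Dag1 turned to 0.46 and Dtna to 0.73 with the no-gene share as a term. P14 control replicate 1, with the lowest share of reads on no gene of the kept P14 libraries (63.7%), held the Dmd level of 4316 CPM, and without it Dmd was called at -1.75 (adjusted p = 0.00848). The block by replicate number also brought the call, at -1.22 (adjusted p = 0.017). With the no-gene share as a term, which did not overlap between these days either, the value was 0.19 (adjusted p = 0.932). The difference between the genotypes in the step from P7 to P14 was itself -0.48 for Dmd (SE 0.50, adjusted p = 0.974), and 0.18 with the replicate block and 0.36 without P14 control replicate 1, so a difference between the genotypes was not shown by the call in only one of them.

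**Figure D2:**
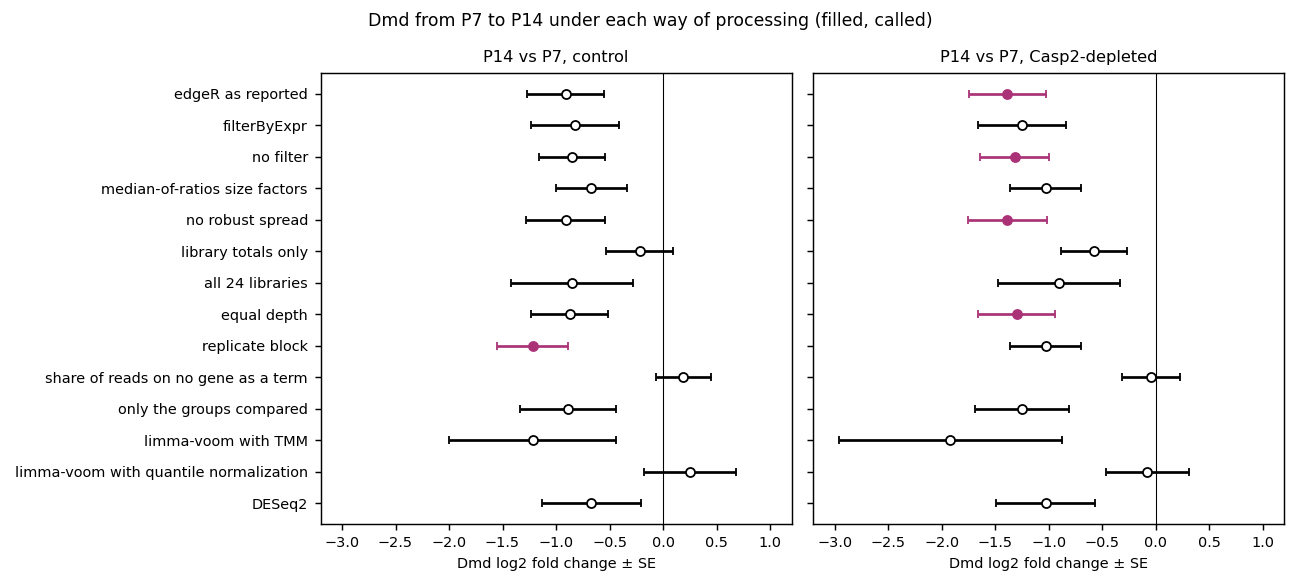
Log2 fold change of Dmd from P7 to P14 (x axis, ± SE) in controls and in Casp2-depleted CMs under the reported fit and 13 alternatives (y axis; filled, called). In Casp2-depleted CMs the values run from -1.92 to -0.05 and Dmd is called in the reported fit and 3 alternatives; in controls they run from -1.22 to 0.25 and it is called with the replicate block.

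The sarcoglycans Sgca and Sgcb had no read in any kept P14 control library. Sgca, the alpha-sarcoglycan of striated muscle, had 40, 27, 31 and 6 reads in the P7 control libraries and none in the 3 of P14, whose 3197664 reads on genes allow up to 0.938 RPM (3 reads over the group). With reads pooled by group it was at least 13.4-fold lower at P14 than at P7 in controls (12.6 RPM against 0). That limit leaves out the spread between pools. By library, P7 control replicate 4 was at 3.67 RPM, where 3 reads in a P14 control library are 2.35 to 3.36 RPM. Sgcb, beta-sarcoglycan, had 128, 37, 27 and 64 reads at P7 and none at P14, and was at least 33-fold lower when pooled in the same way. Between the same groups the summed cardiomyocyte markers were lower without overlap (61660 to 88066 RPM at P7, 13490 to 49248 at P14), and so were the genes detected per library (14416 to 17614 and 7628 to 13651). Their part in these limits was not tested. Without P14 control replicate 1, the deepest library of that group, these limits were 8.05-fold and 19.8-fold. Neither was called by edgeR (adjusted p = 0.246 and 0.136), whereas DESeq2 and limma-voom with TMM called both. With Utrn, 3 of the 8 genes did not overlap between P7 and P14 in controls in CPM, as was so for 15.4% of all tested genes, and in RPM 2 did not, Sgca and Sgcb, beside 14.2%. The fold limits and floors treat each read as a separate count and leave out the spread between pools. No molecular identifiers are stated, so PCR duplicates among the reads cannot be told apart.

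In Casp2-depleted CMs the reads of both genes were not at 0 at P14. Sgca had 6, 24 and 0 reads there and Sgcb 0, 0 and 11, against 31, 22, 12 and 25 and 94, 5, 16 and 33 at P7. With the control group at 0 and reads pooled by group, the P14 Casp2-depleted level was at least 9.91-fold higher for Sgca and at least 3.63-fold higher for Sgcb. But the edgeR adjusted p was 0.388 and 0.396, and 1 library of 3 for Sgca and 2 of 3 for Sgcb held no read. The limit for Sgca was 2.98-fold without P14 Casp2-depleted replicate 3 and 5.94-fold without P14 control replicate 1. That for Sgcb was 5.69-fold, 5.47-fold and 2.18-fold without P14 Casp2-depleted replicate 2, replicate 3 and P14 control replicate 1, and no read was left without P14 Casp2-depleted replicate 4. At P1 the spread was wide too. The control libraries had 54, 1 and 11 reads of Sgca and 0, 11 and 0 of Sgcb, and the Casp2-depleted ones 95, 0, 0 and 28 of Sgca and 25, 30, 0 and 60 of Sgcb. With reads pooled by group, Sgca was at least 17.2-fold and Sgcb at least 2.87-fold lower in P14 than in P1 controls (edgeR adjusted p = 0.428 and 0.431). The limit for Sgca was 4.5-fold without P1 control replicate 2, which held 54 of the 66 reads, 27.2-fold without P1 control replicate 3 and 10.3-fold without P14 control replicate 1. The 11 Sgcb reads were all in P1 control replicate 3, so that limit rests on 1 library, and it was 1.72-fold without P14 control replicate 1. Sgca alone of the 8 genes did not overlap there, beside 7.93% of tested genes, but by 1 read in P1 control replicate 3 against 0, which is under the floor of 3 reads, so no separation is read from it.

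Sgcd, which encodes delta-sarcoglycan, had reads in all 21 libraries, and its group means lay between 440 and 653 CPM. Its mean was 519 ± 85.0 CPM (SD, n = 3) in P1 controls, 637 ± 188 (n = 4) in P7 controls and 653 ± 284 (n = 3) in P14 controls, the highest of the 6. The Casp2-depleted means were 562 ± 139 (n = 4), 587 ± 194 (n = 4) and 440 ± 109 (n = 3) at P1, P7 and P14, and all neighbours in the order of means overlapped. The rank of the P14 Casp2-depleted mean turned with the scaling. It was the lowest in TMM-scaled CPM and, per kb in RPM, below only that of P14 controls (0.567, against 0.746 in P14 controls and 0.434 to 0.511 in the others). At P14, single libraries gave 807, 827 and 326 CPM in controls and 435, 552 and 334 in Casp2-depleted CMs, a log2 difference of -0.57 between genotypes (SE 0.51, adjusted p = 0.751).

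Dag1, which encodes both dystroglycan subunits, had its highest TMM-scaled mean in P7 controls, at 343 ± 162 CPM (SD, n = 4), with 580 in replicate 2 and 237 to 310 in the other 3. The P1 controls (176, 142 and 178 CPM) lay below all of these. Per kb in RPM the highest mean of Dag1 was that of P14 Casp2-depleted CMs (3.626, against 3.477 in P7 controls), and P1 controls (130.2 to 236 RPM) overlapped P7 controls (193 to 333). P14 controls gave 354, 122 and 118 CPM. In Casp2-depleted CMs the means were 219 ± 109 (n = 4) at P1, 244 ± 129 (n = 4) at P7 and 188 ± 92.1 (n = 3) at P14, and every group overlapped the next in the order of means. Of the scaffold genes, Dtna ranged from a mean of 139 ± 51.0 CPM (n = 4) in P1 Casp2-depleted CMs to 193 ± 43.3 (n = 3) in P14 Casp2-depleted CMs, where it was highest. In P14 controls 1 library at 330 CPM stood over the other 2 at 102 and 51.6. Sntb1 ranged from 396 ± 79.6 CPM (n = 4) in P7 controls to 214 ± 101 (n = 3) in P14 Casp2-depleted CMs, whose libraries gave 298, 242 and 102. For these genes too the order is that of TMM-scaled CPM. Per kb in RPM the lowest mean of both was in P7 Casp2-depleted CMs (0.504 for Dtna, 0.972 for Sntb1), Sntb1 was highest in P1 Casp2-depleted CMs (1.411), and Dtna stayed highest in P14 Casp2-depleted CMs (1.130).

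From P1 to P7 in controls all 8 genes had a positive log2 fold change, where 43% of tested genes had a negative one and the median was 0.21. None was called by edgeR or DESeq2 or had an unadjusted p under 0.05, as 6.67% of tested genes had, limma-voom with quantile normalization called Sgcb, and edgeR called 0.00982% of tested genes. The values were 0.64 for Dmd (SE 0.36, adjusted p = 0.626; 0.41 with the replicate block, adjusted p = 1), 0.80 for Utrn (SE 0.50, adjusted p = 0.649) and 1.05 for Dag1 (SE 0.60, adjusted p = 0.626). The Dmd value was 0.34 without P1 control replicate 2 and 1.13 without P1 control replicate 3. That of Dag1 was 0.63 without P7 control replicate 2 and 1.19 without P7 control replicate 4. Utrn (414, 465 and 305 CPM at P1), Dag1 and Sgcb did not overlap between the days in CPM, which makes 3 of 8 genes beside 9.76% of tested genes, but in RPM only Sgcb did not, beside 10.1%. For Sgcb the log2 fold change was 3.91 (SE 2.45, adjusted p = 0.656), with 11 reads in 1 of 3 libraries at P1 and none left without P1 control replicate 3. It was 1.04 with all 24 libraries, as P1 control replicate 1, left out of the fits, held 222 reads of Sgcb (67.1 RPM), above the P7 controls (14.1 to 56 RPM). That library was set aside by the study for signs of cytoplasmic contamination. Its no-gene share was 9.21%, against 60.7 to 73.9% in the kept P1 controls, so its levels may not be nuclear ones. The count of positive values was 4 of 8 when scaled by library totals, and 2 of 8 with TMM factors and the no-gene share as a term in the fit. The summed cardiomyocyte markers were higher at P7 without overlap, at 24704 to 56166 RPM in P1 and 61660 to 88066 in P7 controls. Those of macrophages were lower without overlap, at 88.4 to 148 and 42 to 84.4 RPM. Markers of the other cell types overlapped. The part of these levels in the rise of the 8 genes was not tested. In Casp2-depleted CMs the same step gave log2 fold changes between -0.24 (Sntb1) and 0.37 (Sgcb) with every gene overlapping (1.96% of tested genes did not) and 2 of 8 negative, beside 45.9% of tested genes. No gene of the 8 was called there by edgeR, limma-voom or DESeq2 or had an unadjusted p under 0.05, beside 0.0196% and 7.4% of tested genes by edgeR.

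Over the whole interval from P1 to P14, Dmd was called in Casp2-depleted CMs, with a fall of 1.24 on the log2 scale (SE 0.36, edgeR adjusted p = 0.0375), as 1 of the 8 genes beside 1.94% of all tested genes and a median over all of -0.41. The P1 libraries (4702, 1834, 2096 and 4534 CPM) overlapped those of P14 (1970, 1137 and 1078), and so did those of the other 7 genes, whereas 6.79% of tested genes did not overlap. In RPM Dtna did not overlap there, beside 7.1% of tested genes. The log2 fold change was negative for 7 of the 8 and 57.3% of tested genes, and an unadjusted p under 0.05 was found for 1 of the 8 and 17.5% of tested genes. This comparison shares its P14 libraries with that against P7. The summed cardiomyocyte markers did not overlap between these groups, at 31263 to 81358 RPM at P1 and 16716 to 29532 at P14, nor did the mural ones, at 401 to 537 and 183 to 291, and their part in the Dmd result was not tested. The call was lost without any 1 of 9 libraries, with values from -1.24 to -0.85 and adjusted p from 0.0513 to 0.334. Those were P1 control replicates 2 and 3, P1 Casp2-depleted replicates 1 and 4, P7 control replicate 1, P14 control replicates 2 and 4, and P14 Casp2-depleted replicates 3 and 4. It was also lost under 11 of 13 other alternatives, among them the replicate block (-0.96, adjusted p = 0.139) and the term for the no-gene share (-0.21, adjusted p = 0.949). Sntb1 had -0.86 (SE 0.55, adjusted p = 0.385) and Utrn -0.83 (SE 0.50, adjusted p = 0.348). Without P14 Casp2-depleted replicate 4, Sntb1 was at -0.38 and Utrn at -0.41, and without replicate 2 at -1.17 and -1.16. In controls Dmd had -0.27 (SE 0.37) and Utrn -0.32 (SE 0.52), and none of the 8 was called by edgeR, limma-voom or DESeq2 beside 0.319% of tested genes called by edgeR. An unadjusted p under 0.05 was found for 1 of the 8 beside 11.5%, and a negative value for 6 of the 8 beside 55.7%. With the replicate block the control value of Dmd was -0.81 (adjusted p = 0.551). It was -1.11 without P14 control replicate 1 and 0.22 without P1 control replicate 3. The difference between the genotypes for Dmd was -0.97 (SE 0.52, adjusted p = 0.461). It was -0.16 with the replicate block, -0.15 with the no-gene share as a term and -0.19 with all 24 libraries. Leaving out 1 library gave -1.46 (without P1 control replicate 3) to -0.13 (without P14 control replicate 1), with -0.63 without P1 control replicate 2.

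Whether Casp2 depletion changed these genes was asked at each day, and none of the 8 was called at any, by edgeR, limma-voom or DESeq2. At an unadjusted p under 0.05 there were 0, 0 and 1 of the 8 at P1, P7 and P14, beside 7.34%, 4.22% and 12.8% of tested genes. Over all tested genes edgeR called 0% at P1, 0% at P7 and 0.167% at P14, with 1496 and 860 genes at an unadjusted p under 0.05 at P1 and P7. DESeq2 called 105 and 25 genes at P1 and P7, limma-voom with TMM 49 and 0, and limma-voom with quantile normalization 63 and 1. At P14 the counts were 34 by edgeR, 651 by DESeq2, and 116 and 149 by limma-voom with TMM and with quantile normalization. At P1, 7 genes had a positive and Dtna a negative log2 difference (-0.25, SE 0.65), beside 43.5% of tested genes with a negative one, and the largest was 2.59 for Sgcb (SE 2.29, adjusted p = 0.963), which rests on 11 reads in P1 control replicate 3. It turned to -0.26 with all 24 libraries and was 2.02 to 3.00 without any 1 library other than that one, without which the controls had no read. Dmd had 0.26 (SE 0.35, adjusted p = 1), which was -0.02 with the replicate block and -0.09 with all 24 libraries. At P7 all 8 were negative, from -0.95 for Sgcb (SE 1.94) to -0.08 for Utrn (SE 0.45), beside 51.2% of tested genes, and every adjusted p was 1. Without P7 control replicate 1 there were 5 negative values instead of 8, and also 5 by limma-voom with quantile normalization. The Sgcb value was -1.62 without P7 Casp2-depleted replicate 1 and -0.55 without P7 control replicate 1. For Dmd the P7 difference was -0.24 with a 95% interval from -0.87 to 0.40, and for Utrn from -0.96 to 0.81. At P14, 5 of the 8 were negative beside 41.7% of tested genes, and Dmd had -0.72 (SE 0.38, adjusted p = 0.391; 95% interval -1.45 to 0.02), and the value was -0.17 with the replicate block (adjusted p = 1), -0.27 with all 24 libraries and 0.13 without P14 control replicate 1. No gene of the 8 was separated between the genotypes at any day, beside 3.4%, 1.64% and 5.15% of tested genes at P1, P7 and P14. The tests of a genotype difference in each step between days called none of the 8 either, beside 0% of tested genes for P1 to P7, 0.0245% for P7 to P14 and 0.0638% for P1 to P14.

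**Figure D3:**
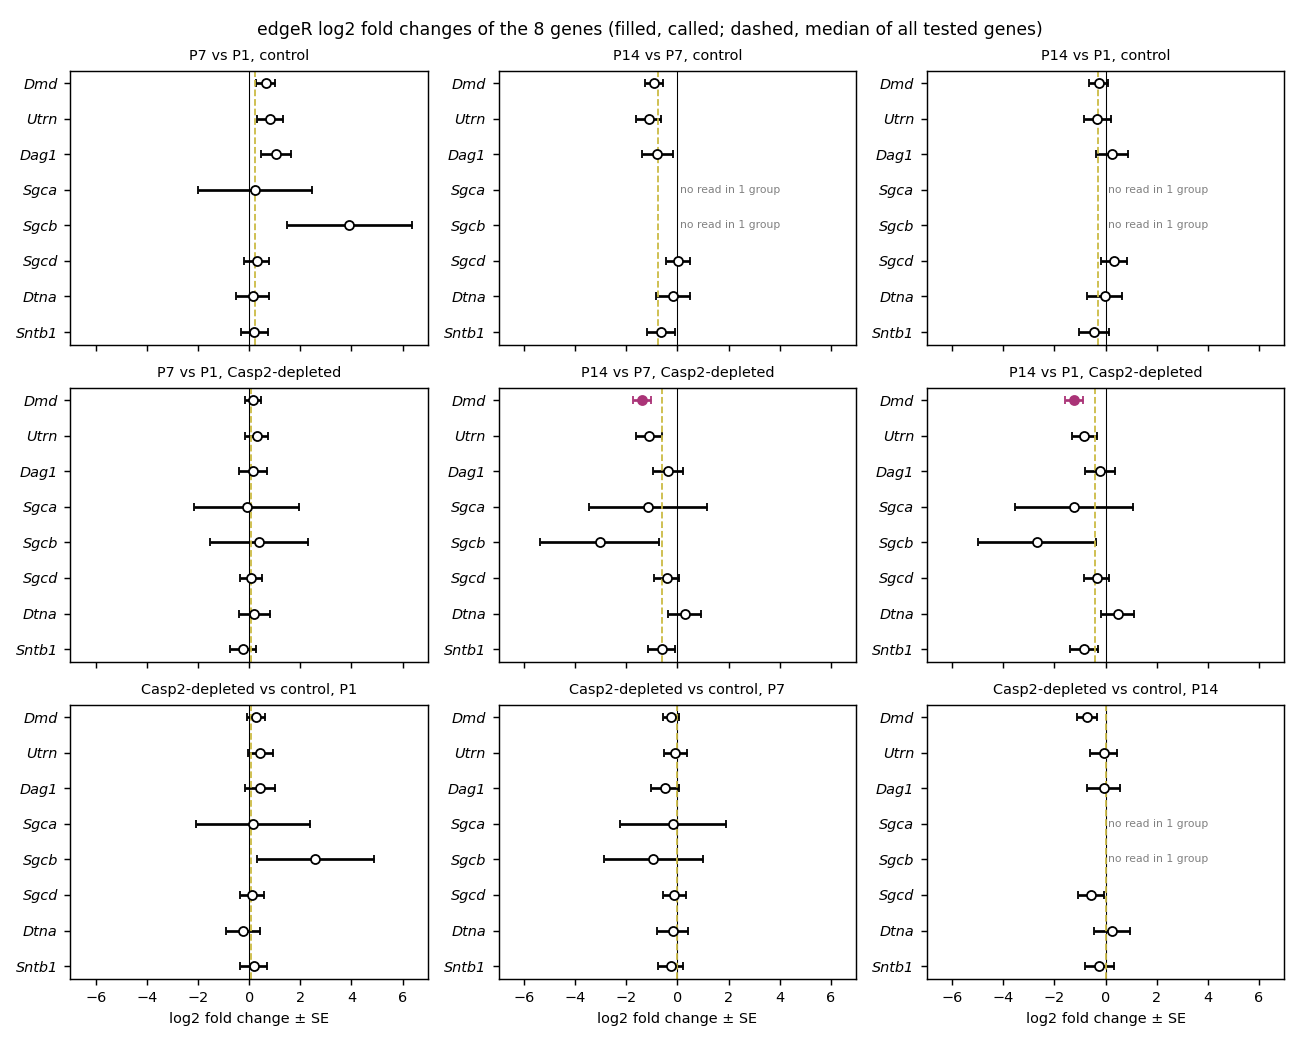
Log2 fold changes (x axis, ± SE) of the 8 genes in the 6 comparisons of days and the 3 of genotypes; filled symbols passed the test and the dashed line is the median of all 20368 tested genes. Dmd was called from P7 to P14 (-1.39) and from P1 to P14 (-1.24) in Casp2-depleted CMs and no other value was; no fold is drawn for Sgca and Sgcb where 1 group had no read.

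The level of Dmd moved with the share of reads that lay on no gene. Over the 21 libraries Pearson's r between that share and Dmd's log2 CPM was -0.89 and Spearman's rho -0.93 (permutation p = 1e-05 for both, the smallest that 100000 permutations can give; adjusted over the 8 genes 4e-05). These permutations exchange libraries freely across days, genotypes and replicate numbers, so they do not set the relation apart from differences between days or from the high level of replicate 1. Without the 2 libraries farthest from the median share r was -0.87, and within P1, P7 and P14 (7, 8 and 6 libraries) it was -0.83, -0.94 and -0.96. On RPM, which does not use TMM factors, r was -0.68. The libraries left out do not enter these values. Among them P14 control replicate 3 had a low share, 16.1%, with Dmd at 2326 RPM, while P1 control replicate 1 had 9.21% with 5532 RPM. Utrn had r = -0.88 and Dag1 r = -0.76, with -0.43 for Utrn and -0.80 for Dag1 within P14, while Dtna had r = -0.35 (permutation p = 0.12, adjusted 0.12). For Sgcb r was -0.73, for Sgca -0.56, for Sgcd -0.52 and for Sntb1 -0.47. The sign was not the same throughout for these genes and Dtna. On RPM r was 0.32 for Sgcd, 0.16 for Dtna and 0.12 for Sntb1, against -0.45 for Sgca, -0.67 for Sgcb, -0.57 for Utrn and -0.35 for Dag1. Within P14 r was 0.34 for Sgca, 0.32 for Sgcb and 0.27 for Sntb1, and -0.39 for Sgcd and -0.38 for Dtna. Within P1 and P7 it was negative for all 8 genes. The TMM factors themselves were 0.575 to 0.839 in P7 controls and 1.11 to 1.48 in P14 controls, with 0.702 to 0.983 and 1.22 to 1.57 in Casp2-depleted CMs, so they raise P7 levels against P14 levels.

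**Figure D4:**
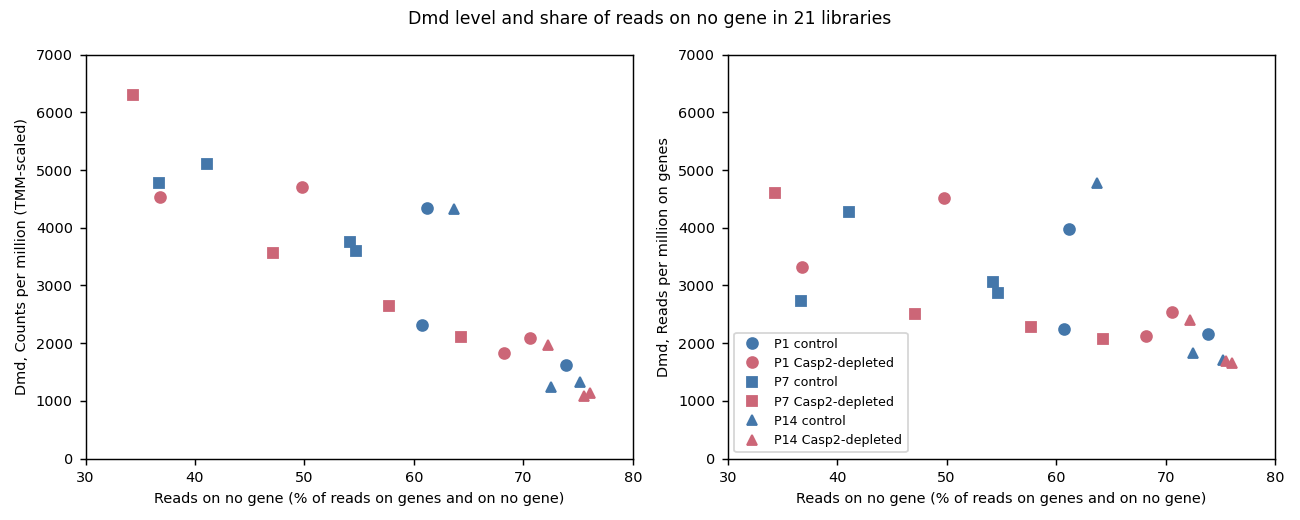
Dmd in each of the 21 libraries (y axis; left, TMM-scaled CPM; right, RPM) against the share of reads on no gene in that library (x axis, %). On the left the libraries run from 6295 CPM at 34.3% to 1137 CPM at 76.1%, and on the right the pooled levels are 3253 and 2969 RPM in P7 and P14 controls and 3156 and 1934 RPM in P7 and P14 Casp2-depleted CMs. Of the P14 controls, replicate 1 is at 4774 RPM and the other 2 are at 1714 and 1825.

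Levels are set side by side between the members per kb of gene, in RPM per kb, since reads were counted over whole genes. Whether 3′ reads per kb measure the level alike in short and long genes was not tested. Dag1 had the highest group means of the 8 genes in every group, from 2.544 to 3.626. Group means were 0.848 to 1.431 for Dmd, 0.972 to 1.411 for Sntb1, 0.823 to 1.069 for Utrn, 0 to 1.281 for Sgca and 0 to 2.069 for Sgcb, so these ranges overlap. Dtna had 0.504 to 1.130 and Sgcd 0.434 to 0.746. Beside them stand 3 genes of the wider lists that are over 900 kb long, chosen after their values were seen, namely Sgcz, Sntg1 and Nrxn3. Neurexins, one of which Nrxn3 encodes, are best known from synapses. The joint density of the 3 genes was 0.183 ± 0.076 (SD, n = 4) in P7 controls and 0.638 ± 0.206 (n = 3) in P14 controls, and 0.281 ± 0.158 (n = 4) and 0.748 ± 0.10 (n = 3) in Casp2-depleted CMs. Dmd itself had means of 1.431 in P7 and 1.228 in P14 controls, and 1.268 and 0.848 in Casp2-depleted CMs. A ratio to the 3 genes therefore also carries their own rise. The ratio of Dmd to these genes per kb was 2.99 ± 1.60 (n = 3) in P1, 8.74 ± 3.26 (n = 4) in P7 and 2.44 ± 2.41 (n = 3) in P14 controls. In Casp2-depleted CMs it was 7.19 ± 6.90 (n = 4) at P1, 7.52 ± 8.36 (n = 4) at P7, with libraries from 1.99 to 19.87, and 1.17 ± 0.42 (n = 3) at P14, with libraries from 0.89 to 1.66. The 19.87 was in replicate 1 at P7, and replicate 1 at P14, which was left out of the fits, had a ratio of 8.47, within the P7 range. That left-out library had 4285 genes detected, against 9428 to 12327 in the kept P14 Casp2-depleted ones. The left-out control libraries had Dmd ratios above all kept controls, 103.27 in P1 replicate 1 and 103.70 in P14 replicate 3. The joint density of the long genes was 0.024 and 0.010 there. For Sgcd the ratio was 1.16 ± 0.25, 2.74 ± 1.28 and 1.29 ± 0.70 in P1, P7 and P14 controls. In Casp2-depleted CMs it was 2.23 ± 1.74, 2.32 ± 2.25 and 0.76 ± 0.20, with P14 libraries from 0.57 to 0.96 and P7 libraries from 0.96 to 5.67. What these reads are was not tested.

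**Figure D5:**
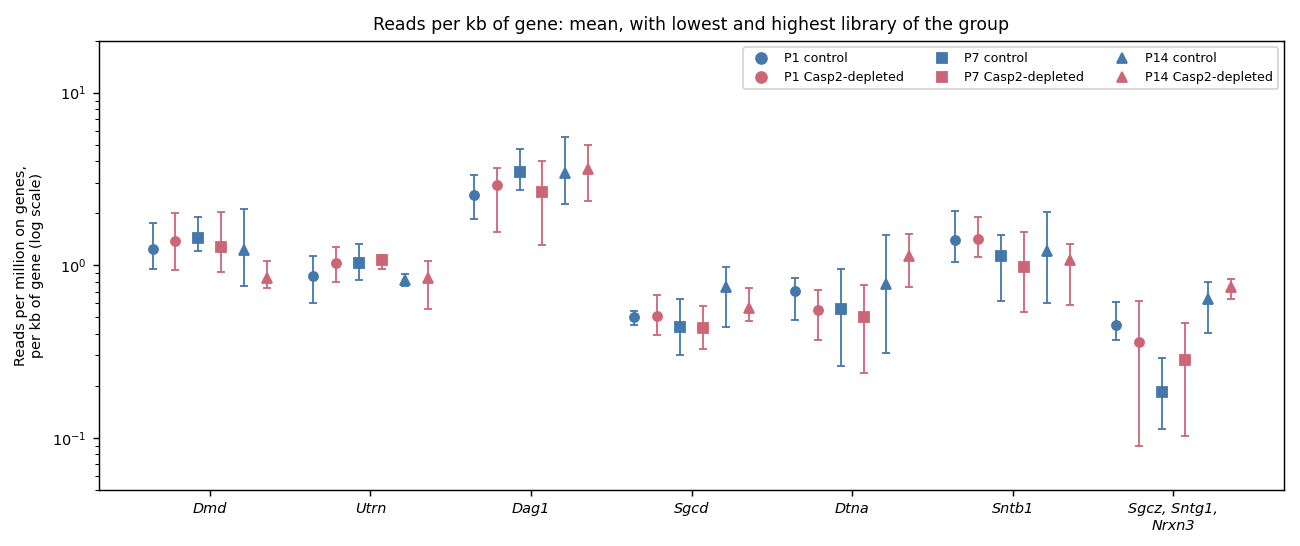
RPM per kb of gene (y axis, log scale) for the 6 members over 20 kb and, together, for Sgcz, Sntg1 and Nrxn3 (symbols, group mean; bars, lowest and highest library). The 3 long genes lie between 0.183 and 0.748, Sgcd between 0.434 and 0.746, and Dmd is at 0.848 in P14 Casp2-depleted CMs.

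Length also went with the direction of change over all genes. From P7 to P14 the median log2 fold change was 0.17 in controls and 0.18 in Casp2-depleted CMs for the 1137 genes over 200 kb, and -1.61 and -1.39 for the 7884 genes under 20 kb. Dmd and Utrn, at -0.91 and -1.13 in controls and -1.39 and -1.12 in Casp2-depleted CMs, were lower than that median of long genes. The other members over 200 kb were Sgcd, at 0.04 in controls and -0.42 in Casp2-depleted CMs, Sntb1, at -0.65 and -0.62, and Dtna, at -0.16 and 0.28. Sgca and Sgcb belong to the genes under 20 kb. Neither had a read in P14 controls, and in Casp2-depleted CMs they were at -1.15 (SE 2.30) and -3.05 (SE 2.34). Whether their fall goes beyond that of short genes was not tested.

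Among the wider lists, edgeR called none of the other subunits analysed here. All 10 of these genes (Sgce, Sgcz, Sspn, Sntb2, Sntg1, Sntg2, Dtnb, Drp2, Nos1 and Dytn) were tested, and 0 of 10 passed in any of the comparisons. At an unadjusted p under 0.05 there were 0 to 3 of them per comparison, where 4.22 to 17.5% of all tested genes had one, and DESeq2 called at most 1 and limma-voom at most 2. Of the 16 genes analysed for ligands of dystroglycan, 2 were called lower from P7 to P14 in controls and 3 in Casp2-depleted CMs, and none higher, beside 1.88% and 2.83% of all tested genes called. DESeq2 called 3 and 3 of them, limma-voom with TMM 2 and 2, and limma-voom with quantile normalization 0 and 3. Lamb1, the laminin beta-1 chain, had 717 reads in P7 controls and 7 in P14 controls (log2 fold change -5.97, SE 1.26, edgeR adjusted p = 0.000504). In Casp2-depleted CMs it had 628 and 0, at least 86-fold lower with reads pooled by group (54.9-fold without P14 Casp2-depleted replicate 2 and 57.1-fold without replicate 3). Lamb2, the beta-2 chain, had -5.00 (SE 1.38, adjusted p = 0.0217) in controls and -4.79 (SE 1.38, adjusted p = 0.0231) in Casp2-depleted CMs. Agrn, which encodes agrin, had -5.85 (SE 1.38, adjusted p = 0.00198) in Casp2-depleted CMs, and its P7 and P14 libraries overlapped. The list's median was -0.74 in controls and -0.88 in Casp2-depleted CMs, beside -0.75 and -0.61 over all genes.

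None of the 14 tested enzymes that glycosylate dystroglycan, out of 18 listed, was called by edgeR in any comparison, with 0 to 3 at an unadjusted p under 0.05 beside the same shares of all tested genes, and at most 1 called by DESeq2 or limma-voom. Of the 24 tested membrane and cytoskeletal partners, out of 25 listed, 3 were called lower from P7 to P14 in controls and 4 in Casp2-depleted CMs, with list medians of -1.41 and -1.98, beside the same shares of all tested genes. The shifts of the summed cardiomyocyte markers (lower at P14 without overlap in both genotypes) and, in Casp2-depleted CMs, of fibroblast and endothelial markers (higher) given above lie between these same groups, and their part was not tested. DESeq2 called 5 and 7 of them, and both limma-voom fits 4 and 2. In controls these were Ldb3, a Z-disc protein (1499 ± 378 CPM at P7, n = 4, and 210 ± 146 at P14, n = 3; log2 fold change -2.83, SE 0.70, edgeR adjusted p = 0.0171), Anxa6, an annexin (-2.87, SE 0.84, adjusted p = 0.0377), and Des, the intermediate filament desmin, with 358 reads at P7 and 1 at P14 (adjusted p = 0.0497). In Casp2-depleted CMs they were Fhod3, a formin of the sarcomere (-1.61, SE 0.36, adjusted p = 0.000733), Ank2, an ankyrin whose P7 and P14 libraries overlapped (-1.99, SE 0.46, adjusted p = 0.0013), Tln2, a talin (-1.96, SE 0.53, adjusted p = 0.0104), and Ldb3 (-2.35, SE 0.68, adjusted p = 0.0459). From P1 to P14, Lamb1 was called lower in both genotypes (in controls the only ligand called by edgeR, beside 0.319% of all tested genes, with 1 called by DESeq2 and 0 by either limma-voom fit), and Lamb2, Agrn, Ank2 and Ldb3 in Casp2-depleted CMs, beside 1.94% of all tested genes there. In controls none of the partners was called by edgeR, with 6 at an unadjusted p under 0.05, 3 called by DESeq2 and 1 by each limma-voom fit. The P1 and P14 Casp2-depleted libraries overlapped for Lamb1, Lamb2 and Ldb3. In that comparison DESeq2 called 3 ligands and 7 partners, limma-voom with TMM 2 and 3, and limma-voom with quantile normalization 3 and 3.

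Genes whose TMM-scaled log2 CPM followed each member closely over the 21 libraries, among 10521 genes with a mean of at least 20 reads, are given as a description, since all share depth and scaling. For Dmd these were Cdh13 and Ablim1 (Pearson's r = 0.94 for both) and Ror1 (0.93), and for Utrn Dlc1 (0.91), Gpatch8 (0.90) and Ehbp1 (0.89). Dag1 was closest to Slc25a37 (0.84), Acadl (0.82) and Rbm24 (0.82), and Sgcb to Fbxo9 (0.86), Mcm3 (0.85) and Mospd1 (0.85). Sgcd reached 0.75 with Mff and Tcf20 and 0.74 with Agtpbp1, Dtna 0.87 with Pi4k2a, 0.78 with Rapgef2 and 0.74 with Vps54, and Sntb1 0.88 with Garre1 and 0.86 with Gk. Sgca was below the minimum. Among the 8 genes themselves the highest r was 0.81, between Dmd and Utrn, followed by 0.73 for Dmd and Dag1, and the lowest was -0.06, between Dtna and Sntb1.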

How the data were processed

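PCM1-sorted CM nuclei were profiled by QuantSeq 3′ RNA sequencing. The authors trimmed reads (cutadapt 4.0), aligned them to GRCm39 with Ensembl annotation (STAR 2.6.1e) and deposited raw counts per gene over exons and introns (HTSeq 2.0.3). The strand setting of the counting is not given in the sources used here, so reads of overlapping antisense genes cannot be told apart. Groups were taken from the sample titles, and 21 of 24 libraries entered the fits. The 8 genes, the wider gene lists and the markers were chosen with earlier results of these data known. Symbols came from the GENCODE annotation of the same build.

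Counts were tested in edgeR 4.0.16 (R 4.3.3): genes with at least 10 reads in all and a read in at least 3 libraries, TMM factors, 6 group means, a robust quasi-likelihood fit with 15 residual degrees of freedom, and Benjamini-Hochberg adjustment over 20368 genes. A gene was called at an adjusted p under 0.05 with a log2 fold change beyond 1 in either direction. The common coefficient of biological variation was 1.5. SE is the log2 fold change over the root of F, and 95% intervals are normal intervals from it. The study's methods name limma. Alternatives were limma-voom (limma 3.58.1) with TMM or quantile normalization, DESeq2 1.42.0, other filters and size factors, all 24 libraries, equal depth, a replicate block, the no-gene share as a term, only the groups compared, and each library left out. The fit without a robust spread and that with library totals only were added after seeing the data. Named genes were the 8 members, Casp2, up to 5 called genes of a list per comparison by size of change, and the 3 most correlated genes per member. A few genes of the lists and of these correlations are not reported here.

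The file names call the replicate number a batch. Over all genes, the deviations from group means of the 2 genotypes' libraries with the same number and day correlated at -0.059 to 0.185. Only replicate 3 at P1 was negative among them. Pairs of the same day with different numbers took both signs, from -0.140 to 0.099. These values do not speak for single genes, and Dmd was highest in replicate 1 of every group, so the fit with the replicate number as a block is given beside the Dmd results. Pools of hearts differ between replicates. No 2 libraries of a group were the same within sampling noise (chi-square per degree of freedom 19.2 or more over 36 pairs).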

Additional observations from a re-analysis of the deposited data

Results flagged for a closer look

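Each of the 24 combinations of a gene and a group of 4 kept libraries was searched for a library far from the other 3 (gap over range above Dixon's 95% value), which chance gives in about 1 in 20. It found 2. Sgca was at 4.5 CPM in P7 control replicate 4 against 19.4 to 20.9 in the other 3 libraries. Sgcd was at 355 CPM in P1 Casp2-depleted replicate 3 against 618 to 643 in the others.

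In the 3 libraries left out of the fits, 6 of 24 values lay above every kept control library of the same day, in RPM. In P1 control replicate 1 Dmd was at 5532 (kept controls 2157 to 3985), Utrn at 694 (295 to 552), Dag1 at 244 (130.2 to 236) and Sgcb at 67.1 (0 to 7.12). In P14 Casp2-depleted replicate 1 Dmd was at 4850.4 (kept controls 1714 to 4774) and Utrn at 848 (371 to 433). A further 4 values lay below every kept control, all in P14 control replicate 3, where Utrn was at 118 (371 to 433), Dag1 at 92.2 (159 to 392), Dtna at 49.9 (76.2 to 365) and Sntb1 at 0 (164 to 553). The shares of reads on no gene in P1 control replicate 1, P14 Casp2-depleted replicate 1 and P14 control replicate 3 were 9.21%, 64.1% and 16.1%. Genes detected were 11707, 4285 and 2049, where the kept libraries had 7628 to 17770. For the first of these libraries the study named signs of cytoplasmic contamination. The 3 long genes named above were at 0.024 RPM per kb in P1 control replicate 1, 0.254 in P14 Casp2-depleted replicate 1 and 0.010 in P14 control replicate 3, which had no read of Sntb1.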

How the results depend on the processing

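The fall of Dmd from P7 to P14 in Casp2-depleted CMs made 1 gene called of the 8. That count stayed at 1 with no filter, no robust spread and equal depth, and was 0 with filterByExpr, median-of-ratios size factors, library totals only, all 24 libraries, the replicate block, the no-gene share as a term, only the groups compared, both limma-voom fits and DESeq2. From P1 to P14 in Casp2-depleted CMs it was 0 under those settings and with equal depth. Leaving out 1 library gave 0 to 1 called in each. From P7 to P14 in controls none was called, but the replicate block called 1 (Dmd), limma-voom with TMM 2, limma-voom with quantile normalization 1, DESeq2 2 (Sgca and Sgcb), and leaving out 1 library 0 to 1. From P1 to P7 in controls limma-voom with quantile normalization called 1 (Sgcb).

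Directions turned as follows (log2). From P7 to P14 in controls, Dmd was 0.19 with the share term and 0.25 with quantile normalization, Dag1 0.46 with the share term, Sgcd -0.07 with the replicate block and -0.06 with limma-voom and TMM, and Sntb1 0.11 with library totals. Dtna was 0.05 with median-of-ratios factors and with DESeq2, 0.48 with library totals and 0.73 with the share term. In Casp2-depleted CMs, library totals, the share term and quantile normalization gave 0.45, 1.03 and 0.03 for Dag1 and 0.39, 0.15 and 0.49 for Sgcd, and library totals gave 0.15 for Sntb1. From P1 to P7 in controls, Dmd was -0.26 with the share term and -0.29 with quantile normalization, and Dag1 -0.09 with the share term. Between genotypes, Dmd at P1 was -0.09 with all 24 libraries, -0.02 with the replicate block, -0.24 with the share term and -0.04 with quantile normalization, Dmd at P7 was 0.08 and 0.29 with the limma-voom fits, Sgcb at P1 was -0.26 with all 24 libraries, and the Dmd difference in the P7 to P14 step was 0.18 with the replicate block. Leaving out 1 library gave, from P7 to P14, -0.15 to 0.36 for Sgcd and -1.23 to 0.26 for Dtna in controls and -0.84 to 0.09 for Dag1 in Casp2-depleted CMs. It gave -1.11 to 0.22 for Dmd from P1 to P14 in controls, -1.05 to 0.13 for Dmd between genotypes at P14 and -0.81 to 0.36 for its step difference. The cause was not tested. The no-gene share did not overlap between P7 and P14 in either genotype, nor between P1 and P7 in controls. Values with the share term in these steps therefore cannot be set apart from the day. Library totals moved the median of all genes from -0.75 and -0.61 to 0.00 in the P7 to P14 steps. Of 8 genes, 4 were lower from P7 to P14 with the share term in controls and with library totals in Casp2-depleted CMs, 5 were lower between genotypes at P7 with quantile normalization and without P7 control replicate 1, and 4, 2 and 4 were higher from P1 to P7 in controls with library totals, the share term and quantile normalization. Other alternatives kept direction and call for 396 of the single-gene values and leaving out a library for 706.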
